A study of Mus musculus with 4 samples.

Results

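The genes described here are 39 mouse genes for adhesion molecules and homing receptors, picked by name, whose probes were found by gene symbol in the platform annotation. They comprise 13 integrin chains, 10 other adhesion molecules, 4 genes of the selectin system, 10 chemoattractant receptors and 2 integrin adaptors. All 39 had probes on the Illumina array, 75 probes of 45281 in all. A probe was taken as measured when it exceeded an intensity floor of 16 on at least 1 array, which held for 26 of the 39 genes, among 8285 such genes on the array and 10413 features tested once unnamed probes are included. Of the 26, 23 exceeded the floor on all 4 arrays and 3 on some of them, and the remaining 13 were at or below it throughout.

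RNA came from T cells of effector memory phenotype, CD4 positive, CD62L negative and CD44 positive, sorted from the spleen and lymph nodes of mice. There were 2 arrays of dKO cells and 2 of WT cells, numbered 1 and 2 in each group. The dKO mice lacked MEKK2 and carried MEKK3F/-, that is a floxed and a deleted MEKK3 allele, with Lck-Cre, a recombinase driven by the promoter of a T cell kinase, on the C57BL/6 background. The WT mice were C57BL/6 mice, and the labels name no Cre and no floxed allele for them. MEKK2 and MEKK3 are MAP kinase kinase kinases, and the study's title puts its question as how they act in TGF-beta-driven differentiation of helper T cells. How many animals gave each RNA, their age, and whether replicates are separate animals are not in the labels, so p-values measure the spread between these arrays.

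Memory T cells reach tissues in steps. Selectins and their sugar-bearing ligands let a cell roll on the vessel wall, chemoattractant receptors signal through G proteins, and this signal, relayed by talin and kindlin to the tails of integrin beta chains, switches integrins into the state that holds the cell fast. Which integrin pairs and which receptors a T cell displays sets the tissues it can enter, and receptors for lipids such as sphingosine 1-phosphate and oxysterols place it within lymphoid tissue or let it leave.

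Arrays of the same number had nearly identical distributions of deposited values, so dKO and WT are set side by side below within a number. Between 28.2% and 29.2% of the probes of an array exceeded the floor. Of the 9 genes of the CD4 T cell list with a probe, 8 exceeded the floor on all 4 arrays, Cd3e and Cd4 among them. The targeted Map3k3 had a deposited intensity of 204 and 246 on dKO 1 and 2, against 311 and 387 on WT 1 and 2, and both probes of Map3k2 lay below the floor on every array. A probe of Xist, transcribed from the inactive X chromosome, was below the floor on both dKO arrays and read 327 and 536 on WT 1 and 2, whereas a probe of the Y-linked Eif2s3y read 235 and 377 on dKO 1 and 2 and was below the floor on both WT arrays. Sex and genotype therefore cannot be told apart in any difference given here.

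No adhesion or homing gene differed between dKO and WT cells beyond the spread between arrays by the test across all features. Of the 26 genes, 4 had higher values in dKO cells with no overlap between the groups, namely the colon homing receptor Gpr15, the oxysterol receptor Gpr183, the integrin chain Itga4 and the CD2 ligand Cd48. A further 5 had lower values in dKO cells with no overlap, namely the SLAM receptor Ly9, the kindlin gene Fermt3, the sialomucin Spn, the tetraspanin Cd9 and the sphingosine 1-phosphate receptor S1pr4. These counts rest on the most intense probe of each gene, and for Spn the other measured probes had mean differences of the opposite sign. Limma, which fits every feature and borrows spread between them, called 0 of the 26 with genotype alone (adjusted p = 0.9997 for each) and 0 with the replicate number as a block (adjusted p from 0.325 to 0.984). Over all features it called 0.00% with genotype alone and 0.144% with the block. At an unadjusted p under 0.05 it passed 1 of the 26 with genotype alone, Fermt3, where 3.43% of all features passed, and 7 of the 26 with the block, where 11.5% passed. Groups did not overlap for 12.7% of all features in the higher direction and for 13.5% in the lower, so the 4 and 5 of 26 are near that background. The median log2 difference of the 26 was 0.03, beside 0.01 over all features. With 2 arrays against 2, an exact permutation test of a single gene cannot go below p = 0.333.

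Within the replicate numbers, 7 of the 26 genes were higher in dKO in both numbers and 9 lower in both, where 27.6% of all features were higher in both and 26.6% lower in both. The other 10 differed in sign between the numbers or were at the floor in both arrays of one number, among them 4 of the 7 integrin chains. In bulk RNA a smaller share of cells expressing a gene and less RNA per cell cannot be told apart, which holds for every difference below.

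**Figure D1:**
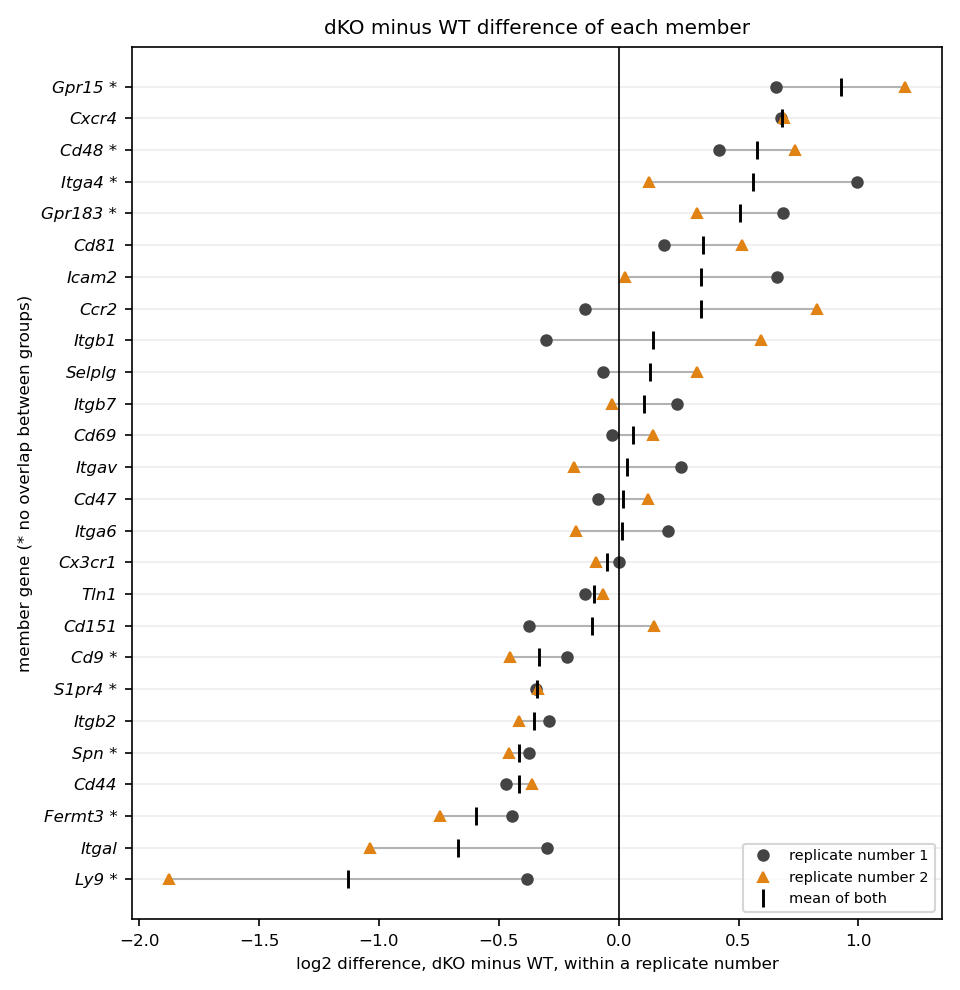
Log2 difference, dKO minus WT, of the 26 measured genes on the horizontal axis, with a dot for replicate number 1, a triangle for number 2 and a bar for their mean. Asterisks mark the 9 genes with no overlap between the groups. Gpr15 and Cxcr4 lie to the right of 0 in both numbers, and Ly9, Itgal and Fermt3 to the left of 0 in both.

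The 250 bases before the transcription start are shown for the genes of smallest unadjusted p among those without overlap, a pair in each direction of their most intense probe, to put sequence beside the values. They are from RefSeq on GRCm38.p6, which holds start regions for 30 of the 39 genes and none for Ly9 here. Gpr15 is at chr16:58718873-58719122, minus strand, Itga4 at chr2:79255176-79255425, plus strand, Fermt3 at chr19:7019470-7019719, minus strand, and Spn at chr7:127137824-127138073, minus strand. Capitals mark CAGAC, the core of SMAD binding sites, TGTGGT, the core bound by RUNX factors, and CACCC, the core bound by KLF factors, each read on both strands, written 5′ to 3′ along the gene.
Gpr15: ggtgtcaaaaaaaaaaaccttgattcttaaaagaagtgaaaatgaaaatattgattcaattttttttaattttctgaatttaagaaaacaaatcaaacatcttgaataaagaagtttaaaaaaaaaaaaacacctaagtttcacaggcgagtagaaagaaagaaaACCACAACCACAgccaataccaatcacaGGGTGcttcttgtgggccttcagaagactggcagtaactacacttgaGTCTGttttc
Itga4: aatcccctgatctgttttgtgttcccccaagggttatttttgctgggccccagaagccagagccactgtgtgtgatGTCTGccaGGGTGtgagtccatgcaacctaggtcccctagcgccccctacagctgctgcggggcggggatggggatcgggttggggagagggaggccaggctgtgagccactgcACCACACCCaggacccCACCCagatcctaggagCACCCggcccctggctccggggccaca
Fermt3: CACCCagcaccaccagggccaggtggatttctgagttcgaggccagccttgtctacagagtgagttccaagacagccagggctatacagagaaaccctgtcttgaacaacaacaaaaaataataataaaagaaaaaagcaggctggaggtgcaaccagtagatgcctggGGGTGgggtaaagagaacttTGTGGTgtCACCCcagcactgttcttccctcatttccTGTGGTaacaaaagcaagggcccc
Spn: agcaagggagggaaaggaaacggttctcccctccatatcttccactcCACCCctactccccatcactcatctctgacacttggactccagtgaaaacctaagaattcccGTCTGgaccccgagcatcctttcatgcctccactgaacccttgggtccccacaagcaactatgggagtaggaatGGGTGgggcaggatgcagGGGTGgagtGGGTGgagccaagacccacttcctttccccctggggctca

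The Gpr15 window held 1 SMAD core, 2 RUNX cores and 1 KLF core, and that of Itga4 held 1, 1 and 4, of which a RUNX and a KLF core share 2 bases. The Fermt3 window held 0 SMAD cores, 2 RUNX cores and 3 KLF cores, and that of Spn held 1, 0 and 4. Such short words are common. Of 32851 RefSeq windows of this length, 42.2% held the SMAD core, 14.0% the RUNX core and 52.0% the KLF core. Of the 30 genes with a window, 16 held the SMAD core, 7 the RUNX core and 22 the KLF core, and of the 8 with no overlap between the groups, 5, 4 and 6 did. These are matches of letters only, and none was tested for binding.

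Among the integrins, 7 of 13 chains were measured. Itga4 and Itgb7 encode the chains of alpha4 beta7, which binds MAdCAM-1 in gut vessels, and Itga4 with Itgb1 encodes VLA-4, which binds VCAM-1. Itgb7 had a deposited intensity of 2199 and 2160 on dKO 1 and 2, against 1874 and 2209 on WT 1 and 2. The groups overlapped, dKO being higher in number 1 and lower in number 2. The log2 difference was 0.11 ± 0.27 (SE, n = 2 each). Itga4 read 39.6 and 30.2 on the dKO arrays, against 20.3 and 27.6 on the WT arrays. Both dKO arrays lay above both WT arrays, yet the dKO over WT ratio was 1.95 in number 1 and 1.10 in number 2, so the difference came mainly from number 1. Its log2 difference was 0.56 ± 0.29 (SE, n = 2 each), or 0.25 without dKO 1 and 0.87 without dKO 2. Leaving out an array leaves a single number in its group. Such values, here and below, therefore also take in the gap between the numbers. Of 6 Itga4 probes, 2 more exceeded the floor, on 1 and 3 arrays, and gave 0.32 and 0.52, values that lean on the floor.

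Itgb1 read 54.5 and 75.6 on dKO 1 and 2, against 66.8 and 49.4 on WT 1 and 2. The groups overlapped and the numbers differed in sign, with log2 differences of −0.30 in number 1 and 0.59 in number 2. A further Itgb1 probe was higher in dKO in both numbers, by 0.60 and 0.53, so the sign in number 1 depends on the probe. Itgav, which pairs with several beta chains and binds vitronectin and latent TGF-beta, read 59.2 and 126 on the dKO arrays, against 49.6 and 144 on the WT arrays. For Itgav the arrays of number 2 lay above those of number 1 in both groups, and dKO differed from WT by 0.04 ± 0.56 (log2, SE, n = 2 each). A dimmer Itgav probe read 26.5 and 22.0 on dKO 1 and 2, against 16.2 and 21.3 on WT 1 and 2. It was higher in dKO in both numbers, by 0.39 on average, and its dKO 2 value lay below that of dKO 1. Itga6, a laminin receptor chain, stayed near the floor, at 17.5 and 19.3 on the dKO arrays and 15.7 and 22.0 on the WT arrays.

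The leukocyte integrin LFA-1, which binds ICAMs, is made of the Itgal and Itgb2 chains, and both were lower in dKO cells in both replicate numbers. Itgal read 397 and 225 on dKO 1 and 2, against 488 and 474 on WT 1 and 2. Its log2 difference was −0.30 in number 1 and −1.04 in number 2, and −0.67 ± 0.47 over both (SE, n = 2 each). Without dKO 2 the Itgal difference was −0.06, and without dKO 1 it was −1.28. Itgb2 read 95.4 and 77.3 on the dKO arrays, against 116 and 104 on the WT arrays. Its log2 difference was −0.29 in number 1 and −0.41 in number 2, and −0.35 ± 0.37 over both (SE, n = 2 each). That of Itgb2 was −0.05 without dKO 2, −0.11 without WT 1, −0.65 without dKO 1 and −0.59 without WT 2. On the deposited values neither chain overlapped between the groups, whereas after quantile normalization over the 4 arrays dKO 1 lay above WT 2 for both.

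The other integrin chains were at or below the floor on every array. They were the collagen receptor chains Itga1 and Itga2, the fibronectin receptor chain Itga5, the myeloid chain Itgam, the platelet and vitronectin receptor chain Itgb3, and Itgb8, which pairs with Itgav. The single Itgam probe read 3.22 and 5.88 on dKO 1 and 2, against 7.55 and 8.12 on WT 1 and 2. A value below the floor says only that the probe gave no signal above it, since a probe can fail for reasons other than low RNA. Over the 17 probes of the 13 unmeasured genes, deposited intensities ran from −1.19 to 15.1.

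**Figure D2:**
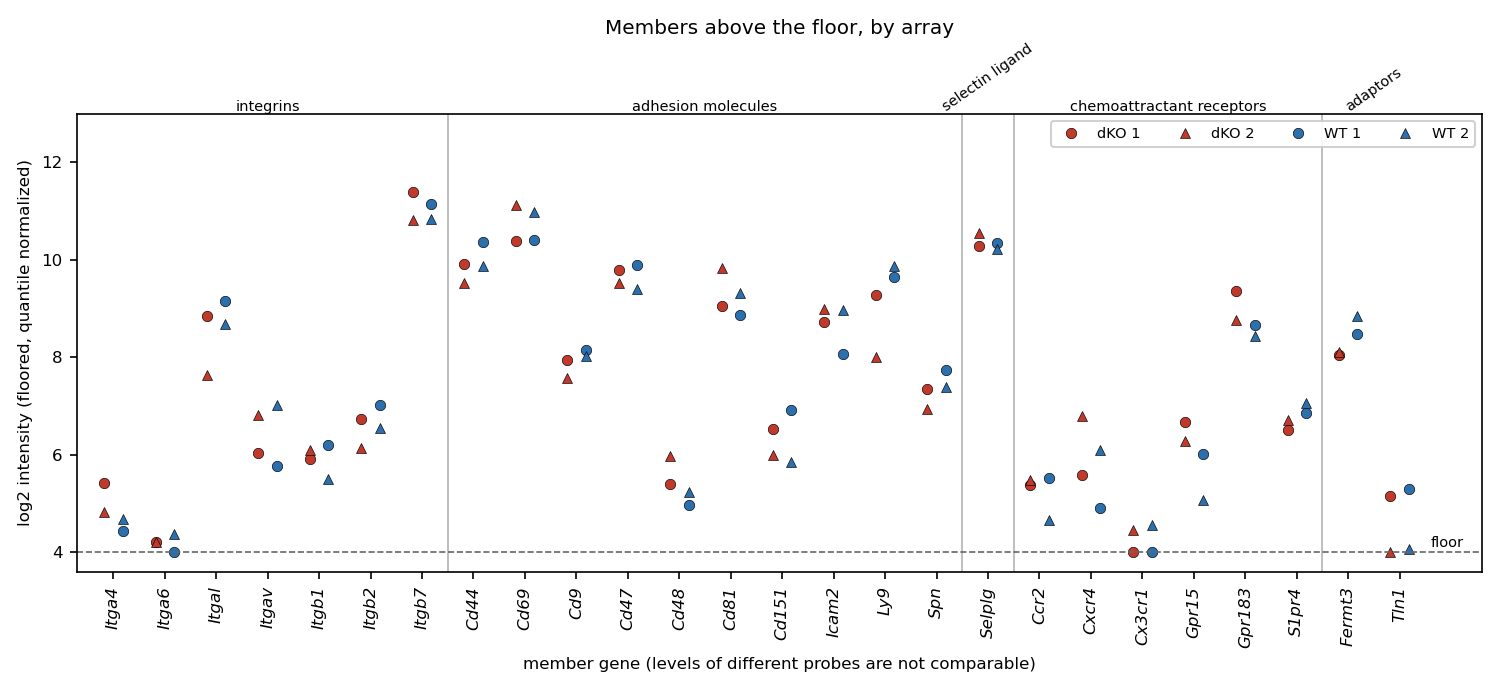
Log2 intensity, floored at 16 and quantile normalized, of the 26 measured genes on the 4 arrays, with dKO in red left of WT in blue, dots for replicate number 1 and triangles for number 2. The dashed line is the floor. Gpr15, Gpr183, Itga4 and Cd48 have both dKO symbols above both WT symbols, and Ly9, Fermt3, Spn, Cd9 and S1pr4 have both below.

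Of the 10 other adhesion molecules, all were measured on all 4 arrays, and groups were apart for 1 that was higher in dKO and 3 that were lower, Spn included, beside the 12.7% and 13.5% of all features. The largest difference was that of Ly9, a self-binding receptor of the SLAM family. Ly9 read 529 and 292 on dKO 1 and 2, against 687 and 1108 on WT 1 and 2. Both dKO arrays lay below both WT arrays, and dKO 2 was by far the lowest, with a dKO over WT ratio of 0.769 in number 1 and 0.264 in number 2. Its log2 difference was −1.13 ± 0.46 (SE, n = 2 each), and a further probe gave −0.90. Without dKO 2 the Ly9 difference was −0.495, and without dKO 1 it was −1.77. Cd48, whose product is bound by CD2, read 38.7 and 69.0 on the dKO arrays, against 29.2 and 40.8 on the WT arrays. The dKO array was the higher in both numbers, with ratios of 1.33 and 1.69, and the log2 difference was 0.58 ± 0.33 (SE, n = 2 each), or 0.29 without dKO 2. On the deposited values the dKO 1 and WT 2 readings of Cd48 cross, so the groups overlap there. Cd48 and Ly9 lie close together on chromosome 1 with 1 annotated gene between them, Slamf7, which itself differed by −0.76.

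Spn encodes CD43, a long sialomucin. Its most intense probe read 146 and 137 on dKO 1 and 2, against 188 and 190 on WT 1 and 2. Both dKO arrays were lower, by −0.37 in number 1 and −0.46 in number 2 on the log2 scale. Its other measured probes gave mean differences of 0.09 and 0.44, opposite in sign, so Spn counts as lower by its most intense probe alone. The mean of its kept probes was 0.039. The probe at 0.09 differed by 0.33 in number 1 and −0.15 in number 2. That at 0.44 stayed near the floor, at 19.1 and 27.5 on dKO 1 and 2, against 7.43 and 18.4 on WT 1 and 2. Cd9, a tetraspanin that associates with integrins, read 217 and 216 on the dKO arrays, against 250 and 297 on the WT arrays. Both dKO arrays were lower, with a log2 difference of −0.33 ± 0.23 (SE, n = 2 each), or −0.15 without dKO 2 and −0.52 without dKO 1. Of the other tetraspanins, Cd81 read 457 and 1071 on the dKO arrays, against 402 and 746 on the WT arrays, and dKO was the higher in both numbers although the groups overlapped. Cd151 read 83.5 and 70.3 on the dKO arrays, against 108 and 63.1 on the WT arrays. All 3 of its probes were lower in dKO in number 1 and higher in number 2. Their mean differences, from −0.11 to 0.016, were not all of 1 sign.

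Cd44, the hyaluronan receptor on which the cells were sorted, read 813 and 858 on dKO 1 and 2, against 1110 and 1107 on WT 1 and 2. The dKO array was the lower in both numbers, with ratios of 0.732 and 0.776 and a log2 difference of −0.42 ± 0.26 (SE, n = 2 each), or −0.22 without dKO 2, −0.17 without WT 1 and −0.66 without WT 2. A further Cd44 probe above the floor on all 4 arrays gave 0.24 in number 1 and −0.35 in number 2. The sort selected cells by surface CD44, so both groups were chosen on its protein. Cd69, which holds T cells in tissue by removing a sphingosine 1-phosphate receptor from the surface, read 1117 and 2727 on the dKO arrays, against 1138 and 2480 on the WT arrays. For Cd69 both arrays of number 2 lay above both of number 1, and the groups overlapped. Icam2, a ligand of LFA-1, read 366 and 594 on the dKO arrays, against 236 and 583 on the WT arrays, with dKO above WT by a ratio of 1.55 in number 1 and 1.02 in number 2. Cd47, which signals to phagocytes through SIRP alpha, read 758 and 861 on the dKO arrays, against 804 and 793 on the WT arrays, and its probes differed in sign.

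In the selectin system, Selplg was the sole gene of 4 above the floor. It encodes PSGL-1, the main selectin ligand of T cells. Selplg read 1042 and 1791 on dKO 1 and 2, against 1091 and 1431 on WT 1 and 2. The groups overlapped, the log2 difference was 0.13 ± 0.18 (SE, n = 2 each), and a further probe gave −0.13. Fut7, the fucosyltransferase that completes selectin ligands, read 12.2 and 14.4 on the dKO arrays, against 4.69 and 8.58 on the WT arrays, all below the floor. Selp, the selectin of platelets and endothelium, and Glycam1, a mucin of lymph node vessels, were likewise below it. Of 9 platelet genes with a probe, 0 exceeded the floor, and of 15 genes of endothelium and lymph node stroma 3 did.

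Among the chemoattractant receptors, 6 of 10 were measured, and their median log2 difference was 0.42. It was −0.06 for the 14 related homing receptors tested and 0.01 over all features. Gpr15 guides T cells to the colon, and TGF-beta is known to raise its expression. Gpr15 read 92.2 and 85.8 on dKO 1 and 2, against 59.0 and 36.5 on WT 1 and 2. Both dKO arrays lay above both WT arrays, with a dKO over WT ratio of 1.56 in number 1 and 2.35 in number 2. On the log2 scale they differed by 0.93 ± 0.44 (SE, n = 2 each), and the other Gpr15 probe, near the floor, gave 0.49 in both numbers. The difference of the brighter probe was 0.46 without WT 2 and 1.398 without WT 1. For Gpr15 the adjusted p in limma was 0.9997, or 0.335 once the replicate number was blocked. Gpr183, which follows oxysterol gradients in lymphoid tissue, read 558 and 502 on the dKO arrays, against 349 and 397 on the WT arrays. Both dKO arrays were higher, with ratios of 1.60 and 1.26 and a log2 difference of 0.51 ± 0.27 (SE, n = 2 each). That of Gpr183 was 0.21 without dKO 1 and 0.80 without dKO 2.

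Cxcr4, the receptor for CXCL12, read 43.9 and 123 on dKO 1 and 2, against 27.8 and 75.5 on WT 1 and 2. The dKO array was the higher in both numbers by nearly the same ratio, 1.58 and 1.62, while the arrays of number 2 lay above those of number 1 in both groups. Its log2 difference was 0.68 ± 0.63 without the block (SE, n = 2 each), and limma with the replicate block gave an adjusted p of 0.379. The Cxcr4 difference was 0.08 without dKO 2 and 0.09 without WT 1, but 1.29 without dKO 1 and 1.28 without WT 2. These 4 values take in the gap between the numbers, whereas within number 1 and number 2 the difference was 0.68 and 0.69. S1pr4, a sphingosine 1-phosphate receptor of lymphocytes, read 82.0 and 117 on the dKO arrays, against 104 and 149 on the WT arrays. Its ratio was also even between the numbers, 0.791 and 0.787, with a log2 difference of −0.34 ± 0.27 (SE, n = 2 each), although on the deposited values the groups overlapped, since number 2 read higher than number 1. Ccr2, a receptor for CCL2, read 38.4 and 48.5 on the dKO arrays, against 42.3 and 26.8 on the WT arrays, with opposite signs in the 2 numbers. Cx3cr1, the fractalkine receptor, exceeded the floor in replicate number 2 alone, at 23.4 on dKO 2 and 25.0 on WT 2. Ccr1 and Ccr3, receptors for inflammatory chemokines, Ccr9, which leads cells to the small intestine, and Ccr10, which leads them to skin and mucosa, were below the floor on every array.

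Fermt3 and Tln1 encode kindlin-3 and talin-1, the adaptors that bind integrin beta tails. Fermt3 read 231 and 314 on dKO 1 and 2, against 310 and 537 on WT 1 and 2. The dKO array was the lower in both numbers, with ratios of 0.745 and 0.584, and after normalization over the 4 arrays both dKO values lay below both WT values, while on the deposited values dKO 2 lay just above WT 1. Its log2 difference was −0.60 ± 0.21 (SE, n = 2 each), with an unadjusted p of 0.0433 in limma across all features and an adjusted p of 0.9997, or 0.325 with the replicate block. Tln1 read 32.7 and 12.9 on the dKO arrays, against 35.9 and 17.5 on the WT arrays, so that number 2 lay at or close to the floor in both groups and the gene was poorly measured there.

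For 16 of the 26 genes the arrays of number 2 and number 1 lay farther apart than dKO and WT, which was also so for 63.2% of all features. On the log2 scale this gap was 1.20 for Cxcr4, 1.02 for Itgav, 0.66 for Cd69 and 0.61 for Cd81, all higher in number 2, and −1.18 for Tln1 and −0.85 for Itgal, lower in number 2. The median size of the gap was 0.45 for the 26 genes and 0.29 over all features, beside a median size of the genotype difference of 0.34 and 0.19.

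**Figure D3:**
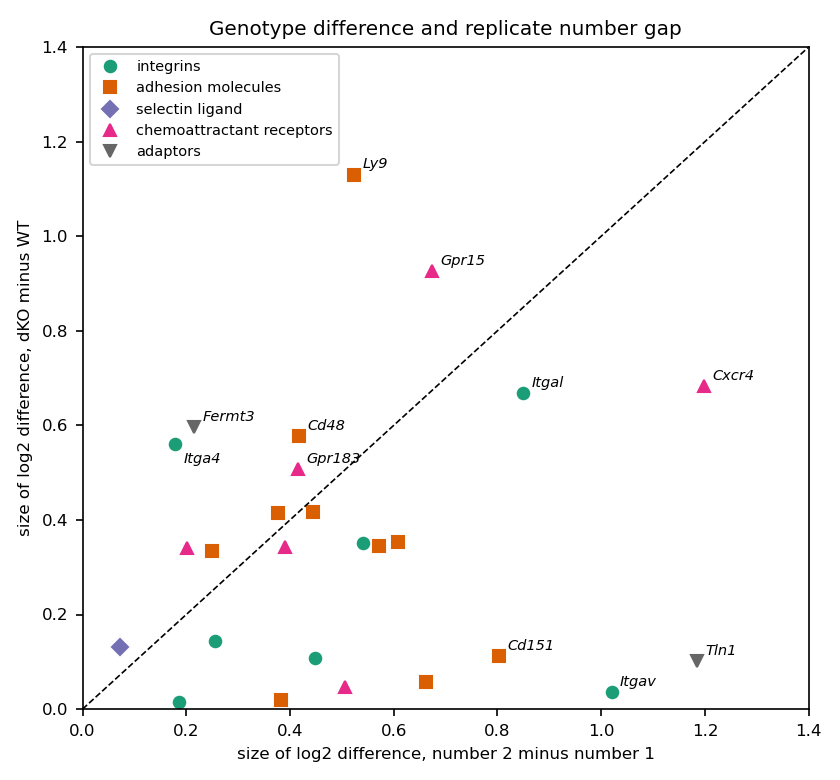
Size of the log2 difference between dKO and WT on the vertical axis against the size of that between replicate numbers 2 and 1 on the horizontal axis, for the 26 measured genes by role, with equality dashed. Ly9, Gpr15, Fermt3, Itga4, Cd48 and Gpr183 lie above the line, while Cxcr4, Tln1, Itgav and Itgal lie far to the right below it.

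Markers of other cells are given here beside these genes, list by list. Of 15 genes of CD8 T and NK cells with a probe, 9 were tested and 6, Cd8a, Ncr1 and Eomes among them, were below the floor on every array. Cd8b1, the other CD8 chain, read 691 and 512 on dKO 1 and 2, against 736 and 602 on WT 1 and 2, and its groups overlapped. All 9 tested were lower in dKO within both numbers, 7 of them without overlap, beside the 26.6% and 13.5% of all features, and limma called 0. Their summed normalized intensity was 2490 and 2968 on dKO 1 and 2, against 4719 and 4023 on WT 1 and 2. Klrb1c, Klre1, Klrk1 and Klra3 were at the floor on both dKO arrays. These 4 were kept through the WT arrays alone, so they could only come out lower. Of the 5 above the floor on all 4 arrays, Klrd1, Nkg7 and Ctsw were lower without overlap, and Cd8b1 and Prf1 overlapped. LFA-1 and kindlin-3 are expressed by NK and CD8 T cells too, and the part of these cells in the lower Itgal, Itgb2, Fermt3 and Ly9 values was not tested. Among 12 macrophage and dendritic cell genes tested, groups were apart for 4 that were higher and 2 that were lower, beside 12.7% and 13.5% of all features. Their sum was 679 and 1455 on dKO 1 and 2, against 947 and 940 on WT 1 and 2. Of the 12, 7 exceeded the floor on all 4 arrays, namely Adgre1, Csf1r, C1qb, Lyz2, Siglech, Batf3 and Sirpa. The higher genes without overlap were Adgre1, Csf1r, C1qb and C1qc, and the lower were Siglech, at −1.75, and Clec9a, at −0.66. The part of these cells in the Ccr2 and Cx3cr1 values was not tested. Of 7 B cell genes with a probe 2 were tested, with sums of 46.0 and 282 on dKO 1 and 2, against 123 and 102 on WT 1 and 2. Of 13 genes of granulocytes and mast cells 3 were tested, with sums of 48.0 and 250 on the dKO arrays, against 48.0 and 48.4 on the WT arrays. All 3 were at the floor on dKO 1 and WT 1, and on WT 2 only S100a8 exceeded it, at 16.7. The sums therefore differ through dKO 2 alone. The 3 endothelial and stromal genes summed to 231 and 167 on dKO, against 173 and 174 on WT. Of 4 erythroid genes tested, the 3 globins were higher in dKO without overlap, limma with the block called these 3, and the sums were 933 and 3518 on dKO 1 and 2, against 76.7 and 135 on WT 1 and 2. The part of these cells in the results above was not tested.

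Related genes of adhesion and homing were examined too. Of 106 with a probe, 77 were tested, with a median log2 difference of 0.01. Groups were apart for 20 that were higher in dKO and 8 that were lower, beside the 12.7% and 13.5% of all features. Limma called 0 of the 77, both with and without the replicate block. Among receptors, Ccr6, which responds to CCL20, differed by 1.01 and Ccr7, the receptor for lymph node entry, by −0.79. Among integrins and their ligands, Vcam1, the ligand of VLA-4 on stromal cells and macrophages, differed by 1.35 and the alpha chain Itgad by 0.75. Gcnt1, an enzyme that builds the core of selectin ligands, differed by 0.81. Among 24 adaptor and cytoskeletal genes tested, groups were apart for 8 higher and 2 lower ones. They included Cytip, which restrains LFA-1 through cytohesin, at 0.64, the talin partner Vcl at 0.60 and the Rap1 activator Rasgrp2 at −0.66. Among the remaining surface molecules, Adgre5, the adhesion receptor CD97, read 614 and 870 on dKO 1 and 2, against 1215 and 1526 on WT 1 and 2. Both dKO arrays of Adgre5 were lower, with a log2 difference of −0.89 ± 0.16 (SE, n = 2 each) and an adjusted p of 0.937 in limma, or 0.156 with the block. Cd6, a receptor for ALCAM, differed by 0.69 with no overlap.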

How the data were processed

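The deposited values are linear probe intensities of Illumina bead arrays, and per the labels' protocols biotinylated cRNA was made from TRIZOL-extracted total RNA. Values below 0 show that background had been subtracted. Sorted values of the dKO and WT arrays of a number differ by at most 0.0846 (number 1) and 0.0793 (number 2), so the authors had equalized them within a number; the software used is not given in the sources here. A table of 8 signal and detection columns matched no label and was not used. Values under 16 were set to 16, and log2 intensities were then quantile normalized across arrays. The filter, set at the percentile 40 of the mean log2 intensity, fell on the floor itself, so it kept the 14673 probes above the floor on at least 1 array, and each gene took its kept probe of highest mean. GEO's platform annotation names 34885 probes by 1 symbol, 18 by several and 10378 by none. Of 11 listed genes with several kept probes, 4 had probes whose mean differences were of opposite sign (Cd47, Cd151, Spn and Selplg).

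Genes were tested across all 10413 features with limma 3.58.1 in R 4.3.3, two-sided, with Benjamini-Hochberg adjustment, and called at 0.05. Genotype was the single term (2 residual degrees of freedom), and adding the replicate number as a block left 1. Whether numbers pair arrays is not in the labels; same-numbered arrays deviated together (correlation 0.472). No correction was made over the list alone and no set test was run. The fits were tested on simulated data. The genes and lists were chosen with earlier results of these data known. All 39 genes are accounted for; of each related list, up to 4 genes that differed by 1.5-fold or more and did not overlap were named, by unadjusted p. Alternatives covered the block, normalization, floor, filter, probe choice and each array left out. The number of arrays limits the precision.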

Additional observations from a re-analysis of the deposited data

How the results depend on the processing

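Limma called 0 of the adhesion and homing genes under every alternative run, and over all features it called 0 except with the replicate block (15), with log2(value + 16) (4) and with no filter (96), where 19040 of 29453 features had no residual variance at all and the calls cannot be relied on. Of 333 values of single genes under alternatives, 25 had another sign and 0 passed the threshold. Genes without overlap numbered 8 to 13 under the other settings. Over all features 26.2% were without overlap in the main run, and 21.9% to 29.1% under the other settings, no filter aside. With an array left out the genes numbered 11 to 22, and the related genes without overlap 49 to 53. There 1 array stands for its group and overlap is rarer by construction, and no share over all features is given. On the authors' deposited values 6 of the 9 genes remained without overlap, and Cd48, Fermt3 and S1pr4 did not. Cd44, Itgal and Itgb2 entered there, all lower in dKO, which made 3 higher and 6 lower. With the mean of kept probes 7 of the 9 remained without overlap, and Itga4 and Spn did not. Itgb1 then entered as higher and Cd44 as lower. Itga6 changed sign on the deposited values (−0.027), at floor 8 (−0.0076) and with log2(value + 16) (−0.0065). With the mean of kept probes Cd47 was at −0.12 and Spn at 0.039. With an array left out, and a lone array assumed to vary like the other group, differences ran from −0.17 to 0.20 (Itga6), −0.59 to 0.66 (Itgav), −0.21 to 0.50 (Itgb1), −0.18 to 0.40 (Itgb7), −0.32 to 0.43 (Cd69), −0.22 to 0.26 (Cd47), −0.034 to 0.74 (Cd81), −0.64 to 0.42 (Cd151), −0.10 to 0.79 (Icam2), −0.0018 to 0.27 (Selplg), −0.095 to 0.78 (Ccr2), −0.32 to 0.23 (Cx3cr1) and −0.71 to 0.51 (Tln1). The other 13 kept their sign, and of these Itgal ran from −1.28 to −0.06, Itgb2 from −0.65 to −0.05, Cxcr4 from 0.08 to 1.29, Ly9 from −1.77 to −0.495 and Spn from −0.62 to −0.21. With an array left out a group holds a single replicate number, so the gap between the numbers enters these differences by construction. Other causes of the changes were not tested. A slide block was not run, as no slide is given for the labelled samples. Signal near the floor limits what can be said of Itga4, Itga6, Cx3cr1 and Tln1, and of the low readings of Ccr2, Cd48 and Cxcr4. The Ccr2 difference was 0.34 in the main run and 0.17 with the floor at 32.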
